A study of Mus musculus with 18 samples.

Results

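The genes described here carry chromosomes through mitosis: they condense and untangle chromosomes, build kinetochores and the spindle, guard the checkpoint and divide the cell. They were chosen by name, as a list of 50 genes, with earlier results of these data known. Each was measured by the array probe set annotated to that symbol alone, taking the brightest where a gene had several. By this rule 49 of the 50 genes were measured, among 22180 genes in all, and Ncapg, a condensin subunit, was not measured because its probe set is shared with Lcorl. The RNA came from microglia, the resident macrophages of the brain, of untreated C57Bl/6 mice under SPF (specific pathogen free) housing. Cells were enriched on a Percoll gradient and sorted as CD45+ CD11b+ Gr1-. The 18 arrays formed 6 groups of 3: cortex at P3, P7 and adult, and corpus callosum at P3, P7 and adult, where P3 and P7 are postnatal days and the adult age is not given. The labels do not say whether an array holds 1 animal or a pool, so p-values measure only the spread between these samples.

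Levels are log2 values made by the authors with RMA, in which 1 unit is a doubling of signal. A difference is given with its standard error after ±, a level with its standard deviation, and n is 3 arrays per group throughout. A gene was called where limma's p, after Benjamini-Hochberg adjustment across the 22180 genes, was under 0.05. Microglial markers were high in all groups: P2ry12 had group means between 11.60 and 12.21, and all 9 measured microglial markers lay above background in every group. The arrays carry no detection calls, so background was taken as the 95th percentile of 1394 olfactory and vomeronasal receptor genes, between 5.80 and 6.06 depending on the group. In such bulk samples, fewer dividing cells and less of a transcript per cell cannot be told apart. P3 arrays bear another label prefix than P7 and adult arrays, so that for P7 against P3 age and array set cannot be told apart. A single array stood apart in these genes: corpus callosum P7 replicate 1 lay below its group mean in all 49 and was the lowest of its 3 arrays in 48. The results that rest on it are given with and without it.

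Mitotic genes are switched on late in the cell cycle. In resting cells the DREAM complex, which joins the MuvB core to E2F4 and a pocket protein, keeps them silent; in dividing cells MuvB works with B-Myb and FoxM1 as an activator. MuvB reaches their promoters through the cell cycle genes homology region (CHR), a short element near the start site, often helped by CCAAT boxes that bind NF-Y. Microglia are known to proliferate in the early postnatal brain and to renew slowly in the adult.

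The promoters were searched because the genes moved together. RefSeq promoter windows of the assembly GRCm38.p6 were given for 43 of the 49 measured genes. They ran from 250 bases before to 50 bases after the gene start that each window uses. CHR letters (TTTGAA or TTTAAA) and CCAAT letters were searched on both strands, and matches of the 2 patterns can share a base. CHR letters were in 36 of the 43 windows (83.7%), against 27.8% of the windows of 27025 symbols. CCAAT letters were in 31 (72.1%), against 37.9%, and both were in 27 (62.8%), against 10.9%. In 19 windows (44.2%) CCAAT occurred at 2 or more positions, against 12.2%. The members' windows had a median GC content of 57.7%, against 52.7%. These matches are descriptions of letters, not of bound sites. The 250 bases before the window's gene start are shown for 5 genes. These had the largest fall from P7 to adult in cortex among those with both elements. Capitals mark the CHR and CCAAT letters on either strand, TTCAAA being TTTGAA and ATTGG being CCAAT read from the other strand. The positions are Top2a, chr11:99024190-99024439, minus strand; Mki67, chr7:135716380-135716629, minus strand; Ube2c, chr2:164769679-164769928, plus strand; Depdc1a, chr3:159495183-159495432, plus strand; and Kif11, chr19:37376132-37376381, plus strand.
Top2a: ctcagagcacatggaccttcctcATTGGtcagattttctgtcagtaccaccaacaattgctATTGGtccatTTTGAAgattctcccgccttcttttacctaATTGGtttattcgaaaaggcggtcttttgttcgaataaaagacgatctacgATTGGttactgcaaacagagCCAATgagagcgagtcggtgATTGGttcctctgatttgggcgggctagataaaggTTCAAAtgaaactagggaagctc
Mki67: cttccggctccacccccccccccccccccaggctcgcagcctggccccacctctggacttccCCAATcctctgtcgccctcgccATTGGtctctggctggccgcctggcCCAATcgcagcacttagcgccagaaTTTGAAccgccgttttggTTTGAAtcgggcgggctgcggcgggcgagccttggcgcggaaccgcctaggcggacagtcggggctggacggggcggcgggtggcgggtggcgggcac
Ube2c: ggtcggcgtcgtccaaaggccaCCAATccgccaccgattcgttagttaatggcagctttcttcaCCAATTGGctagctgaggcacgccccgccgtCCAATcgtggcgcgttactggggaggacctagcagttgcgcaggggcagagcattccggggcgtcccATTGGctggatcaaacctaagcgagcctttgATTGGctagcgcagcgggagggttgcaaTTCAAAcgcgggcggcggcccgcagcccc
Depdc1a: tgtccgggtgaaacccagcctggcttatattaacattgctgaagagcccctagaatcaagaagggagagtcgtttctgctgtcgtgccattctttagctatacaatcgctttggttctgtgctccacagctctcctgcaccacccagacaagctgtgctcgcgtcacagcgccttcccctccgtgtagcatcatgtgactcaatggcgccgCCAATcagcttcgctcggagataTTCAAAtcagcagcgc
Kif11: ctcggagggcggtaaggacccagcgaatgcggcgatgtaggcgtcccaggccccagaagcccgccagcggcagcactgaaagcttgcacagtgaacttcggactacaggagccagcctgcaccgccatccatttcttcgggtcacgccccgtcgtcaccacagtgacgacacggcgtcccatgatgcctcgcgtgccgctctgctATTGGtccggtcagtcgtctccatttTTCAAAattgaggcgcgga

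In Top2a, whose product untangles DNA strands, the nearest CHR letters began 23 bases before the gene start and CCAAT letters occurred at 6 positions. In Mki67 both CHR matches stood together, beginning 116 and 98 bases before the start. In Ube2c, Depdc1a and Kif11 the CHR letters began 29, 16 and 19 bases before the start. These distances count from the gene start that each window uses. The annotated gene reaches to base 99024199 for Top2a and 135716450 for Mki67, and begins at 159495414 for Depdc1a. Part of the bases printed for these genes thus lies within the annotated gene. Among lists of related genes the share with CHR letters differed: it was 63.2% of 19 windows for other spindle and cytokinesis genes, 13 of 26 for other kinetochore genes, 28.1% of 32 for DNA replication genes and 7.69% of 13 for subunits of the anaphase-promoting complex. The CCAAT share was 65.6% for the DNA replication genes, closer to the 72.1% of the mitotic genes.

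All 49 genes were lower in adult than in P7 microglia, in both regions. In cortex the median difference was -2.85 log2 units, a 7.23-fold fall, and the range ran from -4.99 for Top2a to -1.25 for Kif20a. In corpus callosum the median was -2.51, a 5.69-fold fall, with a range from -4.45 for Top2a to -0.76 for Cdca5. All 49 genes passed the test in each region, with adjusted p-values from 7.69e-11 to 0.000191 in cortex and from 3.05e-10 to 0.00506 in corpus callosum. Among all genes 6.15% were called lower in cortex and 10.7% in corpus callosum, and the median of all genes was 0.03 and 0.05. In all 49 genes the 3 adult arrays lay below the 3 P7 arrays in both regions, a separation in either direction that 27.3% of all genes showed in cortex and 34.6% in corpus callosum. Of the 50 genes with the largest falls on the array, 24 in cortex and 22 in corpus callosum were members, and of the 100 largest, 39 and 30. The list was chosen with earlier results of these data known, so these counts describe it and are no independent test. The count of 49 held under every alternative processing that was run. Averaging probe sets could not change it, since no measured member had more than 1 of its own. A filter on dim probe sets kept all 49 through their P3 and P7 levels.

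**Figure D1:**
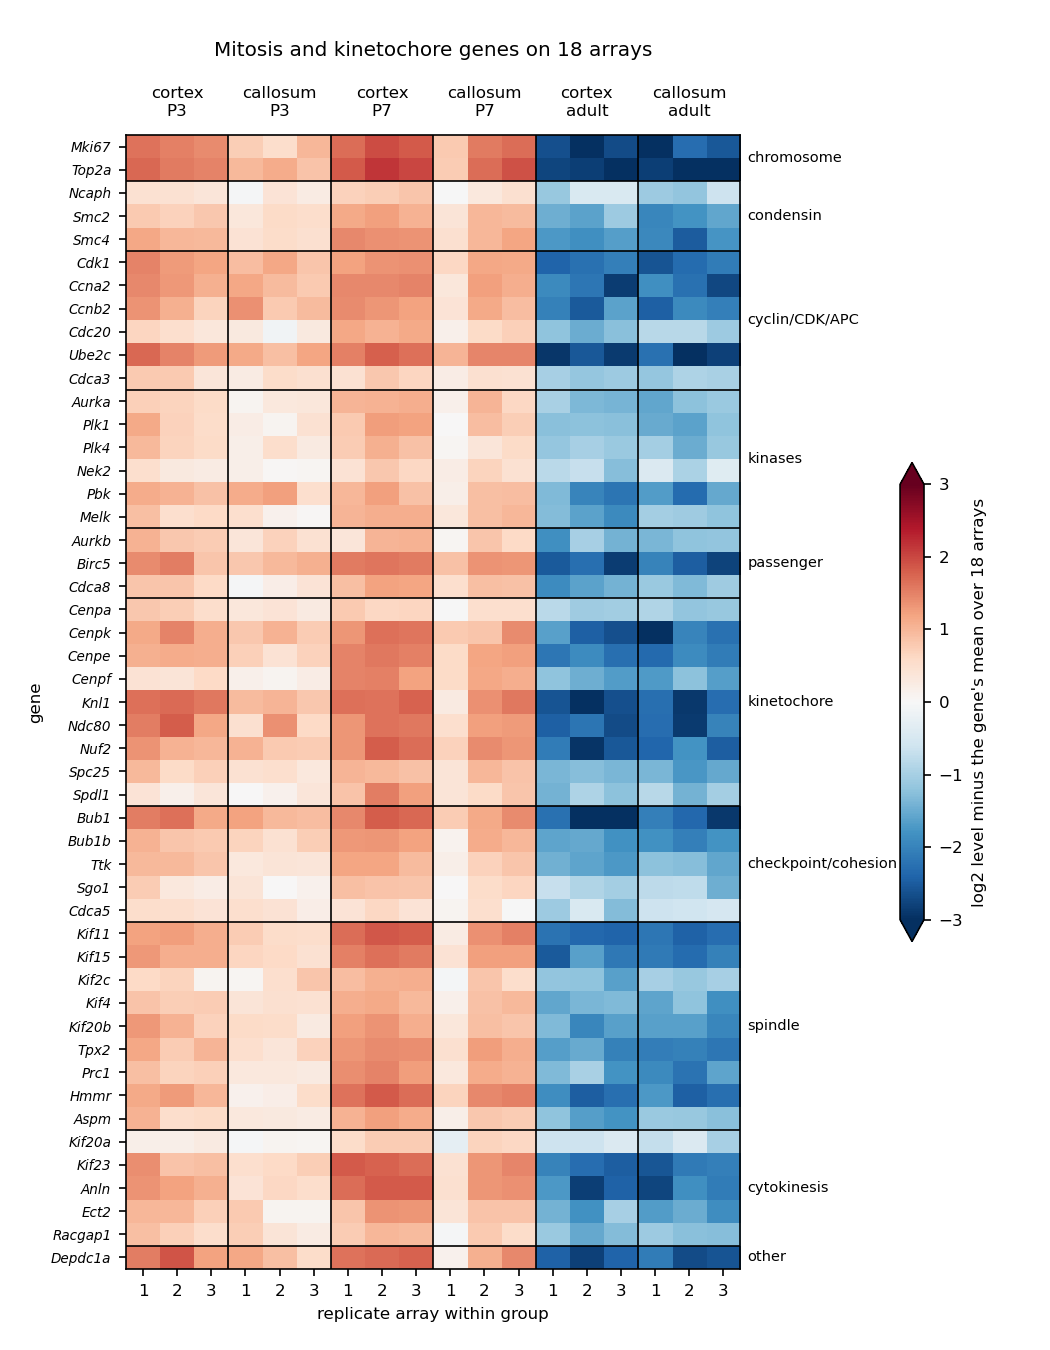
Level of each of the 49 measured genes (rows, grouped by role) on each of the 18 arrays (columns, replicates 1 to 3 within each group), as the log2 level minus the gene's mean over all arrays; colours beyond 3 units in either direction are drawn at the end of the scale. All 49 rows are higher on the P3 and P7 arrays than on the adult arrays, and replicate 1 of corpus callosum at P7 is paler than its 2 companions.

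The chromosome genes Mki67 and Top2a fell in both regions. Where a pair of differences follows a gene, cortex comes before corpus callosum. Mki67 encodes Ki-67, which coats mitotic chromosomes and marks cycling cells. Its levels in cortex were 10.18, 10.07 and 9.97 at P3, 10.25, 10.53 and 10.41 at P7, and 5.92, 5.55 and 5.88 in the adult. In corpus callosum they were 9.30, 9.10 and 9.56 at P3, 9.35, 10.13 and 10.23 at P7, and 5.43, 6.28 and 6.01 in the adult. The lowest young array thus stood more than 2 units above the highest adult array. The fall from P7 to adult was -4.61 ± 0.22 in cortex (24.5-fold, adjusted p 1.19e-10) and -4.00 ± 0.22 in corpus callosum (16.0-fold, adjusted p 9.27e-10). Top2a read 9.53, 9.82 and 9.69 at P7 in cortex and 4.94, 4.85 and 4.27 in the adult. In corpus callosum it read 8.44, 9.37 and 9.58 at P7, replicate 1 being the low array, and 4.86, 4.57 and 4.62 in the adult. Its falls of -4.99 ± 0.23 (31.8-fold, adjusted p 7.69e-11) and -4.45 ± 0.23 (21.8-fold, adjusted p 3.96e-10) were the largest fitted falls of the 49 in each region. The adult means of both Mki67 and Top2a lay below background in both regions, so the folds given for them are fitted sizes only. Measured from P7 down to the background percentile, Mki67 stood highest, at 4.44 in cortex and 3.84 in corpus callosum, against 3.71 and 3.07 for Top2a.

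Genes of condensin, the ring complex that compacts chromosomes, fell as well. Smc4, a core ATPase of condensin, went from 9.83 ± 0.05 to 6.70 ± 0.09 in cortex (-3.12 ± 0.17, adjusted p 6.29e-10) and from 9.33 ± 0.36 to 6.37 ± 0.38 in corpus callosum (-2.96 ± 0.17, adjusted p 1.67e-09). Its partner Smc2 fell (-2.53 and -2.55). Ncaph, the bridging subunit, fell in cortex (-1.44) and corpus callosum (-1.24). Ncaph and Smc4 were the members whose adult mean stayed above background in both regions: Ncaph read 6.61, 7.29 and 7.29 in adult cortex and 6.65, 6.56 and 7.13 in adult corpus callosum.

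Of the 6 genes for cyclins, Cdk1 and the ubiquitin machinery that ends mitosis, all fell, with a median of -3.45 in cortex and -3.05 in corpus callosum. Cdk1, the kinase that drives entry into mitosis, read 8.96, 9.11 and 9.13 at P7 in cortex and 5.37, 5.52 and 5.72 in the adult. In corpus callosum it read 8.37, 8.92 and 8.90 at P7 and 5.17, 5.45 and 5.66 in the adult. The groups lay more than 2 units apart, and the falls were -3.53 ± 0.16 (adjusted p 7.69e-11) and -3.31 ± 0.16 (adjusted p 3.05e-10). Ccnb2, a B-type cyclin that partners Cdk1, fell in cortex (-3.37, adjusted p 1.1e-08) and corpus callosum (-2.95, adjusted p 6.57e-08). Ube2c, the ubiquitin-conjugating enzyme of the anaphase-promoting complex, fell (-4.42 and -4.08). Cdc20, the activator of that complex, fell in cortex (-2.43) and corpus callosum (-1.39).

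The 6 mitotic kinases had median fitted falls of -2.31 in cortex and -1.87 in corpus callosum. They ranged in cortex from -2.87 for Pbk to -1.54 for Nek2, a centrosomal kinase. Aurka and Plk1, which act at spindle poles and centrosomes, fell there (-2.29 and -2.32), and Aurka fell by 1.89 in corpus callosum. The chromosomal passenger complex corrects faulty attachments of chromosomes. Its member Birc5 (survivin) fell in cortex (-4.11) and corpus callosum (-3.60), and its kinase Aurkb fell as well. Aurkb read 7.64, 8.29 and 8.31 at P7 and 5.42, 6.27 and 5.86 in the adult in cortex, a fall of -2.23 ± 0.22 (adjusted p 9.03e-07). In corpus callosum its fall was -1.75 ± 0.22 (adjusted p 1.38e-05).

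The 9 centromere and kinetochore genes had median falls of -3.63 in cortex and -3.10 in corpus callosum. Knl1, the scaffold for checkpoint proteins, fell in cortex (-4.52) and corpus callosum (-3.55), and Nuf2 of the Ndc80 complex (-4.13 and -3.36). Ndc80, which grips spindle microtubules, read 8.42, 8.71 and 8.68 at P7 in cortex and 4.63, 4.89 and 4.42 in the adult. In corpus callosum it read 7.59, 8.31 and 8.38 at P7 and 4.81, 4.22 and 5.08 in the adult. No arrays overlapped between the ages, and the falls were -3.95 ± 0.26 (adjusted p 4.71e-09) and -3.39 ± 0.26 (adjusted p 4.43e-08). Cenpk, of the inner kinetochore, fell (-3.78 and -3.42). Spc25, another subunit of the Ndc80 complex, fell (-2.30 and -2.31), as did Spdl1 (-2.40 and -1.68). The smallest fitted falls of this role were those of Cenpa, the histone H3 variant that marks centromeres, at -1.65 and -1.40.

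**Figure D2:**
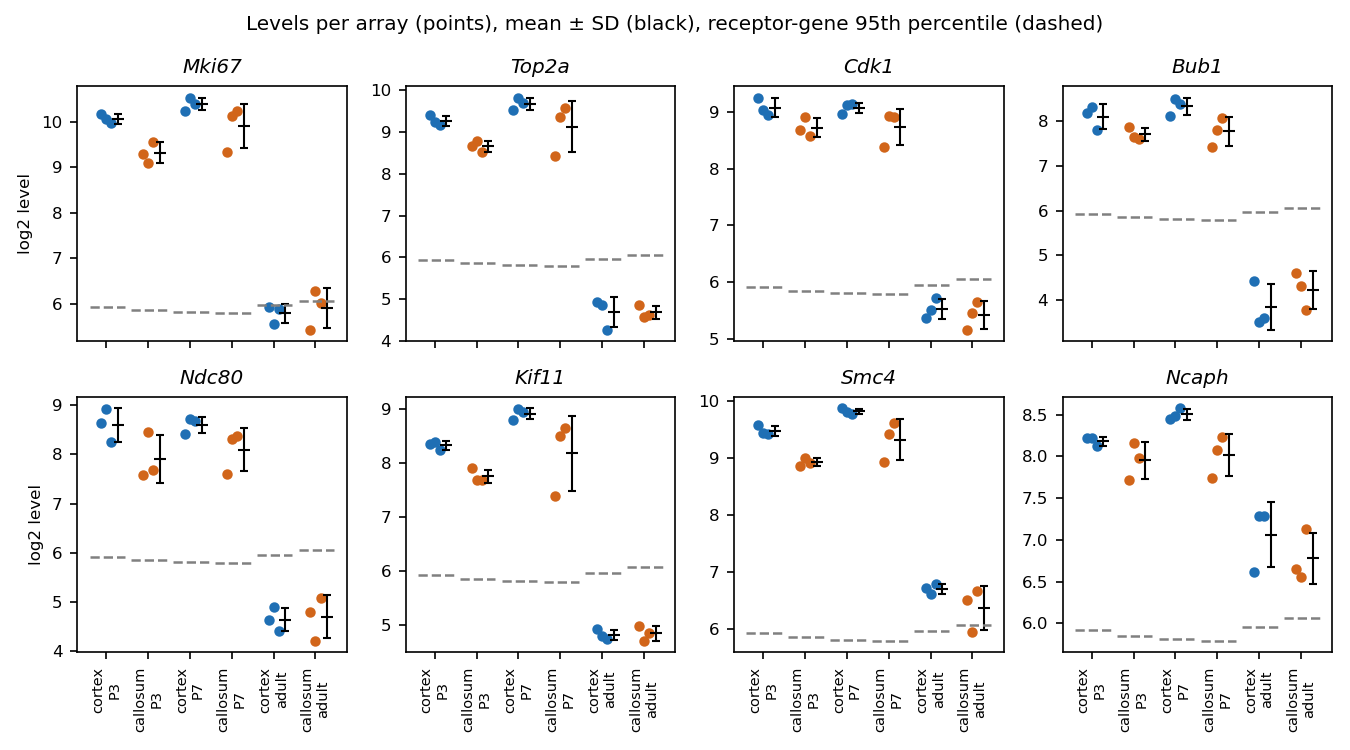
Log2 level on each array (points, replicates 1 to 3 from left to right; blue, cortex; orange, corpus callosum) with group mean and standard deviation in black and the 95th percentile of the receptor genes in that group as a dashed line; each panel has its own vertical axis. At P3 and P7 all points stand above the dashed line, and in the adult only Smc4 and Ncaph have group means above it in both regions.

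Among the checkpoint and cohesion genes Bub1, a kinase of the spindle assembly checkpoint, read 8.11, 8.49 and 8.39 at P7 in cortex and 4.43, 3.51 and 3.60 in the adult. In corpus callosum it read 7.43, 7.80 and 8.07 at P7 and 4.62, 4.31 and 3.77 in the adult. Its falls were -4.48 ± 0.24 (adjusted p 5.32e-10) and -3.54 ± 0.24 (adjusted p 1.05e-08). The related Bub1b fell (-2.92 and -2.63), and the checkpoint kinase Ttk (-2.70 and -1.92). Cdca5 (sororin), which holds sister chromatids together, changed by -1.44 in cortex and, at -0.76 ± 0.18 in corpus callosum, the smallest of the list (adjusted p 0.00506).

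The 9 spindle motors and microtubule-binding proteins had median falls of -2.85 in cortex and -2.72 in corpus callosum. Kif11, the motor that pushes spindle poles apart, read 8.80, 8.99 and 8.94 at P7 in cortex and 4.91, 4.79 and 4.72 in the adult. In corpus callosum it read 7.38, 8.50 and 8.65 at P7, with replicate 1 more than 1 unit below the others, and 4.98, 4.71 and 4.84 in the adult. The falls were -4.10 ± 0.22 (adjusted p 5.08e-10) and -3.33 ± 0.22 (adjusted p 7.27e-09). Hmmr, a spindle pole protein, fell (-3.91 and -3.35). Among the 5 cytokinesis genes Anln (anillin), which organises the contractile ring, fell in cortex (-4.10, adjusted p 4.14e-09) and corpus callosum (-3.28, adjusted p 7.25e-08). Kif20a, a motor of the spindle midzone, had the smallest fall in cortex, at -1.25 ± 0.19, and fell by 1.06 ± 0.19 in corpus callosum. Depdc1a fell (-4.25 and -3.33).

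The size of these falls is limited by the floor of the array. At P3 and P7 all 49 genes had group means above the receptor-gene percentile in both regions. In the adult 45 of the 49 lay below it in cortex and 47 in corpus callosum, the exceptions being Kif20a, Ncaph, Smc2 and Smc4 in cortex and Ncaph and Smc4 in corpus callosum. Of all genes, 44.7% lay above the percentile in adult cortex and 42.8% in adult corpus callosum. Adult levels under it were not told apart from background, so the order of the fitted falls among these genes is not a measured order. Measured from P7 down to that percentile only, the 45 genes of cortex had a median distance of 2.22 log2 units (4.65-fold) and the 47 of corpus callosum 1.61 (3.06-fold). That distance was over 2-fold for 43 and 39 of them, and smallest for Cdca5, at 0.84 and 0.45.

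**Figure D3:**
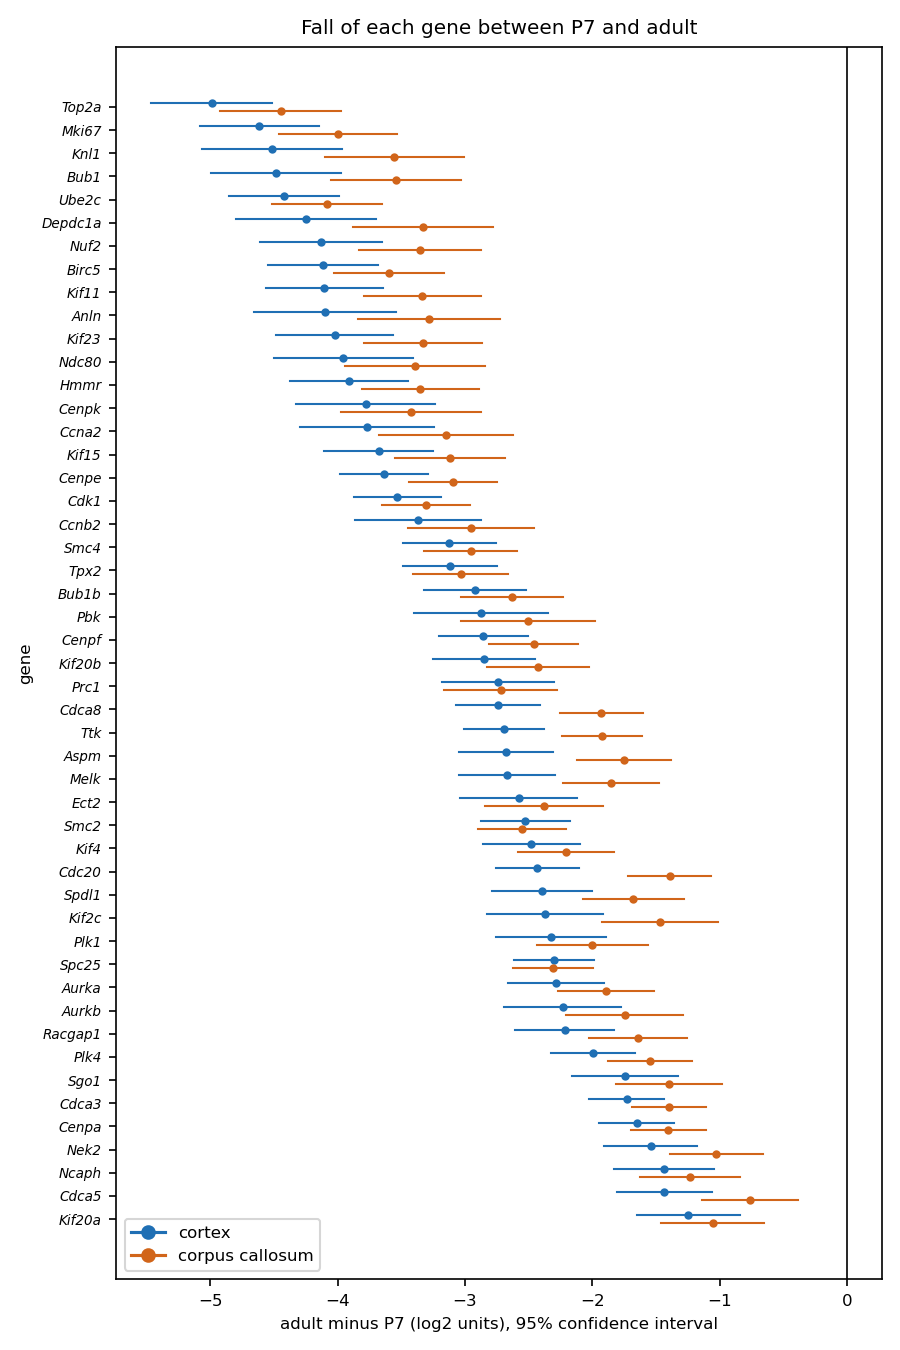
Adult minus P7 difference of each gene in log2 units (points) with its 95% confidence interval (lines), for cortex (blue) and corpus callosum (orange), ordered by the difference in cortex. All intervals lie below 0, from Top2a at -4.99 and -4.45 to Kif20a at -1.25 and -1.06, and Cdca5 in corpus callosum is nearest to 0.

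The fitted fall was numerically smaller in corpus callosum than in cortex for most genes, but the difference passed the test for none. Adult means lay below background for 45 of the 49 genes in cortex and 47 in corpus callosum. The median regional difference was 0.01 in the adult and -0.49 at P7, so these values mostly repeat the difference at P7. The regional difference in the adult minus that at P7 was above 0 for 47 of the 49 genes, against 51.2% of all genes, with a median of 0.51. Limma called 0 of the 49 (0.203% of all genes were called), and 17 had an unadjusted p under 0.05, against 7.34% of all genes. The largest values were Cdc20 at 1.04 ± 0.22 (adjusted p 0.0646), Knl1 at 0.96 ± 0.37, Bub1 at 0.94 ± 0.34, Aspm at 0.93 ± 0.25 and Depdc1a at 0.92 ± 0.37. Adult means of these genes lay below background in both regions. Over the alternatives the adjusted p of Cdc20 ran from 0.0195 to 0.208. This comparison rests on the array that stood apart: without corpus callosum P7 replicate 1 the median was 0.29.

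The genes were already high at P3, and few were called between P3 and P7, a comparison in which age and array set cannot be told apart. In cortex 2 of the 49 were called higher, against 0.280% of all genes: Cenpf, a large kinetochore protein, and Spdl1 (spindly), which brings dynein to kinetochores. Cenpf read 7.39, 7.34 and 7.55 at P3 and 8.43, 8.47 and 8.17 at P7, a rise of 0.93 ± 0.17 (adjusted p 0.0100). Spdl1 read 7.01, 6.75 and 6.97 at P3 and 7.44, 8.13 and 7.83 at P7, a rise of 0.89 ± 0.19 (adjusted p 0.0316). Both were separated between the ages, but neither call was stable: Cenpf was not called without cortex P7 replicate 2 (adjusted p 0.0631) or cortex P3 replicate 1 (0.0522), and Spdl1 was not called without cortex P7 replicate 2 or 3 or any of the 3 cortex P3 arrays, nor in a fit of the compared groups alone (0.0580). In corpus callosum only Cenpf was called higher, against 0.325% of all genes. It read 7.10, 7.04 and 7.16 at P3 and 7.51, 8.11 and 8.04 at P7, a rise of 0.79 ± 0.17 (adjusted p 0.0366). Without corpus callosum P7 replicate 2 or 3, or P3 replicate 1 or 2, no gene was called there. Without P7 replicate 1 the calls were Cenpf, Kif11 and Hmmr, and without P3 replicate 3 they were Cdca8, Cenpf and Hmmr. For Spdl1 in corpus callosum the difference was 0.43 ± 0.19 (adjusted p 0.312), and the regional difference at P7 minus that at P3 was -0.46 ± 0.27 (adjusted p 0.87).

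Most of the other members had differences above 0, and some had differences below it. Values above 0 were found for 44 of 49 genes in cortex (median 0.32) and 40 in corpus callosum (median 0.28), against 51.3% and 49.9% of all genes. The arrays of the 2 ages did not overlap for 26 genes in cortex and 5 in corpus callosum, against 21.3% and 18.8% of all genes. Limma's unadjusted p was under 0.05 for 19 and 12 of the 49, against 2892 and 3149 of all 22180 genes. Hmmr had the largest difference in corpus callosum, at 0.91, and was not called. In cortex Kif11 differed by 0.59 ± 0.22, Anln by 0.58 ± 0.27, Top2a by 0.41 ± 0.23, Smc4 by 0.34 ± 0.17, Mki67 by 0.32 ± 0.22, Ccnb2 by 0.29 ± 0.24 and Bub1 by 0.23 ± 0.24. Cdk1 (-0.01 ± 0.16), Ndc80 (0.01 ± 0.26) and Aurkb (-0.06 ± 0.22) were near 0 and took the other sign under some processing. In corpus callosum Mki67 differed by 0.58 ± 0.22, Anln by 0.54 ± 0.27, Top2a by 0.47 ± 0.23, Kif11 by 0.43 ± 0.22, Smc4 by 0.40 ± 0.17 and Ndc80 by 0.19 ± 0.26. Bub1 (0.06 ± 0.24), Cdk1 (0.01 ± 0.16), Aurkb (-0.02 ± 0.22) and Ccnb2 (-0.21 ± 0.24) were near 0 or below it, and each changed sign under some processing. None of these panel differences passed the test. For Cdk1 the 95% confidence interval was -0.35 to 0.34 in cortex, and for Top2a -0.06 to 0.89.

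Between the regions, none of the 49 genes passed the test at any age in the main fit, which did not pair replicates. At P3 47 of the 49 genes were below their cortical level, against 48.1% of all genes, with a median of -0.40 (1.32-fold). Limma called 0 of the 49 (0.505% of all genes were called) and 0 to 2 over the alternatives; 26 had an unadjusted p under 0.05 against 12.8% of all genes, and the arrays did not overlap for 34 against 15.8%. The largest differences were Hmmr at -0.85 ± 0.22 (adjusted p 0.0966), Mki67 at -0.75 ± 0.22 (0.138), Knl1 at -0.73 ± 0.26 (0.232), Ndc80 at -0.69 ± 0.26 (0.259) and Anln at -0.68 ± 0.27 (0.272). Hmmr read 7.65, 7.80 and 7.51 in cortex and 6.65, 6.71 and 7.07 in corpus callosum. Of the rest of the panel, Top2a differed by -0.61, Kif11 by -0.58, Smc4 by -0.55, Bub1 by -0.40, Aurkb by -0.37 and Cdk1 by -0.35. Ccnb2 stood at 0.00 ± 0.24, with a confidence interval from -0.50 to 0.50, and its sign turned under some processing.

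At P7 all 49 genes were below their cortical level, against 49.2% of all genes, with a median of -0.49 (1.41-fold). Limma again called 0 of the 49 (0.451% of all genes were called) and 0 to 2 over the alternatives; 34 had an unadjusted p under 0.05 against 6.88% of all genes, and the arrays did not overlap for 34 against 16.7%. The largest differences were Depdc1a at -0.83 ± 0.26 (adjusted p 0.321), Kif11 at -0.74 ± 0.22 (0.265), Anln at -0.72 ± 0.27 (0.476), Kif23, a motor of the cytokinesis complex centralspindlin, at -0.68 ± 0.22 (0.331) and Cdc20 at -0.63 ± 0.15 (0.105). Cdc20 read 7.65, 7.55 and 7.64 in cortex and 6.65, 7.07 and 7.22 in corpus callosum. Of the rest of the panel, the differences ran from -0.56 for Bub1 through -0.55 for Top2a, -0.51 for Ndc80, -0.50 for Smc4, -0.49 for Mki67 and Ccnb2 and -0.34 for Cdk1 to -0.32 for Aurkb. The arrays of Top2a and Aurkb overlapped between the regions, and those of the other 8 panel genes did not.

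Much of the size at P7 came with a single array. The mean over the 49 genes was 7.33 on corpus callosum P7 replicate 1, against 7.98 and 7.99 on replicates 2 and 3, and 8.16, 8.33 and 8.25 on the cortical arrays. The gap between replicate 1 and the mean of its companions had a median of 0.63 units and was widest for Knl1, at 1.22. Without that array all 49 genes were still below cortex, against 48.5% of all genes, but the median was -0.25, the lowest adjusted p was 0.813 and 6 genes had an unadjusted p under 0.05, against 3.97% of all genes. On the same array the mean of the 9 microglial markers was 10.40, against 10.70 and 10.74 on its companions, and the mean of the 10 neutrophil markers was 5.44, against 4.70 and 4.67. At P3, by comparison, the neutrophil mean reached 5.77 on corpus callosum replicate 3 and 5.37 on cortex replicate 1. Across the group comparison at P7 all 9 microglial markers were below their cortical level too (median -0.27, 0 called). At P3 it was 7 of 9 (median -0.24, 0 called). Of all genes, 49.2% were below their cortical level at P7 and 48.1% at P3. Of the 9 border macrophage markers, 8 were above their cortical level at P3 (median 0.38, 2 called) and 5 at P7 (median 0.01, 1 called). Of all 22180 genes, 11516 were above it at P3 and 11271 at P7, and 0.505% and 0.451% were called in either direction. Folr2 was higher in corpus callosum at P3 (1.63 ± 0.22, adjusted p 0.00187) and P7 (1.95 ± 0.22, adjusted p 9.05e-05), and Ms4a7 at P3 (1.53 ± 0.29, adjusted p 0.0201); the monocyte marker Lyz2 was higher at P3 (0.90 ± 0.19, adjusted p 0.0384). Mrc1 lay below its cortical level at P3 (-0.72 ± 0.27) and P7 (-0.48 ± 0.27), and neither difference was called. Their part in the regional differences was not tested.

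**Figure D4:**
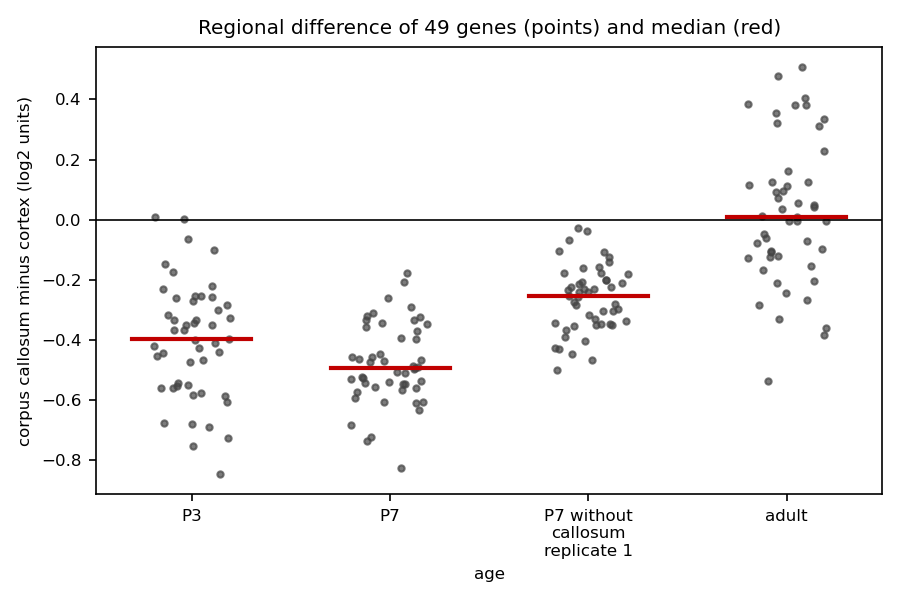
Corpus callosum minus cortex difference in log2 units for each of the 49 genes (points, spread sideways at random) and their median (red line) at P3, at P7, at P7 without corpus callosum replicate 1, and in the adult. The medians are -0.40, -0.49, -0.25 and 0.01.

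In the adult most of these levels lay under the receptor-gene percentile, and 24 genes were below (48.2% of all genes were) and 25 above their cortical level, with a median of 0.01. Limma called 0 of the 49 (0.00451% of all genes were called), 7 had an unadjusted p under 0.05 against 8.51% of all genes, and the arrays did not overlap for 6 against 12.8%. The largest differences were Prc1, which bundles midzone microtubules, at -0.54 ± 0.21, the kinase Melk at 0.51 ± 0.18, Cdca8 (borealin) at 0.48 ± 0.16, Cdc20 at 0.40 ± 0.15 and Bub1 at 0.38 ± 0.24, with adjusted p-values from 0.447 to 0.703. The adult levels of these 5 genes lay under the receptor-gene percentile. The 4 genes above it in at least 1 region were all lower in corpus callosum, and none was called: Ncaph went from 7.06 to 6.78, Smc4 from 6.70 to 6.37, Smc2 from 6.33 to 5.95 and Kif20a from 6.09 to 5.93. The differences were -0.28 ± 0.19, -0.33 ± 0.17, -0.38 ± 0.16 and -0.15 ± 0.19, and the arrays of the regions overlapped for each. The other panel genes had adult means in cortex and corpus callosum of 5.78 and 5.91 for Mki67, 4.69 and 4.68 for Top2a, 5.54 and 5.43 for Cdk1, 5.88 and 5.80 for Ccnb2, 4.65 and 4.70 for Ndc80, 3.85 and 4.23 for Bub1, 4.81 and 4.84 for Kif11, 4.70 and 4.79 for Anln and 5.85 and 6.01 for Aurkb.

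The change of the regional difference from P3 was likewise not called. At P7 minus P3 the median was -0.07 (0.17 without corpus callosum P7 replicate 1), 30 genes were below 0 against 51.8% of all genes, and 0 genes were called or had an unadjusted p under 0.05 (5.68% of all genes had). The largest values were Kif2c at -0.60 ± 0.31, Ccnb2 at -0.49 ± 0.33, Spdl1 at -0.46 ± 0.27, Hmmr at 0.33 ± 0.31 and Pbk at -0.31 ± 0.35. For adult minus P3, 45 of 49 genes were above 0, against 50% of all genes, with a median of 0.37, and limma called 0 (0.18% of all genes were called) while 10 had an unadjusted p under 0.05 against 13.7% of all genes. The largest values were Knl1 at 1.08 ± 0.37, Cdca8 at 1.04 ± 0.22 (adjusted p 0.0658), Melk at 0.95 ± 0.25, Hmmr at 0.90 ± 0.31 and Mki67 at 0.88 ± 0.31. Adult means of these genes, too, lay below background in both regions.

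Other genes of the same machinery were compared from P7 to adult, where 6.15% of all genes were called lower in cortex and 10.7% in corpus callosum. Of 26 other kinetochore genes measured, 24 were called lower in each region, with medians of -1.45 in cortex and -1.17 in corpus callosum. They were led in cortex by Cenph of the inner kinetochore (-3.10), Ska3, which helps kinetochores hold microtubules (-2.82), and Zwilch (-2.36), and in corpus callosum by Ska3 (-2.48), Cenph (-2.42) and the checkpoint protein gene Mad2l1 (-2.25). Of 23 other spindle and cytokinesis genes, 23 were called lower in cortex (median -2.06) and 21 in corpus callosum (median -1.56). Shcbp1 fell (-4.23 and -3.73) and Ckap2 (-3.40 and -3.01), followed by Cep55, which acts when daughter cells separate, in cortex (-3.08) and Tacc3 in corpus callosum (-2.92).

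Of 14 other genes of G2 and mitotic control, 12 were called lower in cortex and 11 in corpus callosum. Wee1, an inhibitory kinase of Cdk1, fell (-3.23 and -2.56), Cdc25c, the phosphatase that opposes it, (-2.78 and -1.83), and Esco2 (-2.62 and -1.83). Pttg1 (securin), which holds back separase until anaphase, went the other way: it rose by 0.71 ± 0.15 in cortex (adjusted p 0.00392) and 0.73 ± 0.15 in corpus callosum (adjusted p 0.00216). Of 13 cohesin and other condensin genes 8 were called lower in each region. Ncapd2 fell (-2.74 and -2.29) and Ncapg2 (-2.29 and -2.15), both condensin subunits, whereas the leading cohesin ring genes fell by about a unit or a little more: Smc3 in cortex (-1.14) and Smc1a in corpus callosum (-1.07).

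Fewer subunits of the anaphase-promoting complex were called, 4 of 14 in cortex (median -0.23) and 5 of 14 in corpus callosum (median -0.29), all lower. The largest falls were those of Ube2s, a chain-extending enzyme of the complex (-1.08 and -0.50), Anapc5 (-0.70 and -0.55) and Cdc27 (-0.56 and -0.62). Of 16 regulators of the MuvB, FoxM1 and NF-Y machinery, 6 were called lower in cortex and 7 in corpus callosum. Foxm1 fell (-2.24 and -1.92), Tfdp1, an E2F partner, (-1.76 and -1.51), and the pocket protein gene Rbl1 (-1.39 and -1.10). DNA replication genes fell with the mitotic genes, 31 of 36 in each region (medians -1.41 and -1.17), led by the ribonucleotide reductase subunit Rrm2 (-5.31 and -5.22), E2f8 (-3.48 and -2.69) and the replicative helicase subunit Mcm6 (-2.81 and -2.69). Of 10 centriole genes 6 were called lower in cortex and 5 in corpus callosum, with Stil, needed to start a new centriole, at -2.95 and -2.49, Sass6 at -0.81 and -0.92, and Cdk5rap2 in cortex at -0.67 or Pcnt in corpus callosum at -0.65.

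**Figure D5:**
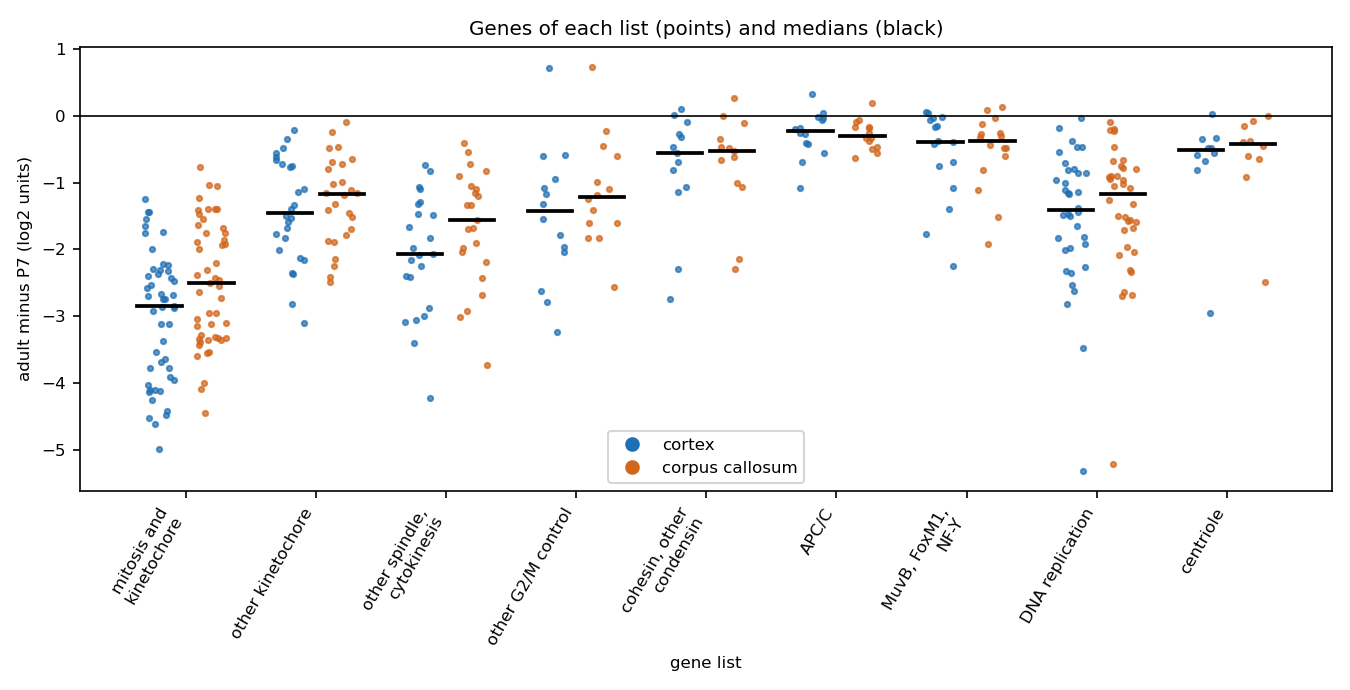
Adult minus P7 difference in log2 units of each gene (points, spread sideways at random) in the 49 mitosis and kinetochore genes and in 8 lists of related genes, for cortex (blue) and corpus callosum (orange), with each list's median in black. The medians run from -2.85 and -2.51 for the 49 genes to -0.23 and -0.29 for the anaphase-promoting complex, and Pttg1 is the point well above 0 in the list of other G2 and mitotic control genes.

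Markers of other cells moved with age as well. The shares of all genes called lower from P7 to adult were 6.15% in cortex and 10.7% in corpus callosum. Of the 9 measured neural progenitor markers, 3 were called lower in the adult than at P7 in each region, Nes and Fabp7 in both, Dcx in cortex and Sox2 in corpus callosum. Fabp7 changed by -2.82 ± 0.42 in cortex and -2.24 ± 0.42 in corpus callosum, and Nes by -1.37 ± 0.17 and -0.93 ± 0.17. The mean of this list ranged over arrays from 5.32 to 5.54 at P7 and from 4.88 to 5.07 in the adult in cortex, and from 5.47 to 5.53 and 5.01 to 5.12 in corpus callosum, with 3 of 9 markers above background at P7 in each region. Between P3 and P7, where age and array set cannot be told apart, Fabp7 fell by 2.12 ± 0.42 in cortex (adjusted p 0.0204) and Dcx fell in both regions. Of 10 neuron markers, Tubb3, Stmn2 and Gap43 were called lower in adult cortex and 0 in corpus callosum.

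Of 9 border macrophage markers, 4 were called lower in adult cortex and 6 in adult corpus callosum. Mrc1, a mannose receptor of macrophages at the brain borders, fell from 11.05 to 6.82 in cortex (-4.23 ± 0.27) and from 10.57 to 6.13 in corpus callosum (-4.44 ± 0.27). The array means of this list ranged from 6.77 to 7.15 at P7 and 5.71 to 5.83 in the adult in cortex, and from 7.07 to 7.28 and 5.83 to 5.89 in corpus callosum. Of 9 microglial markers 4 in cortex and 7 in corpus callosum were called higher in the adult, against 899 and 1454 of all 22180 genes. Tmem119 was higher by 1.03 ± 0.22 and 1.56 ± 0.22. Among the remaining lists, Slc1a3 (astrocyte list) and Ccr2 (monocyte list) were called higher and Tfrc (erythroid list) and Lyz2 (monocyte list) lower in both regions. Aqp4 and Pecam1 were called higher and Plac8 lower in cortex, and Mbp lower in corpus callosum. The mean of the whole erythroid list was 5.59 at P7 and 5.48 in the adult in cortex, and 5.56 and 5.52 in corpus callosum. No marker of oligodendrocyte precursors, neutrophils or lymphocytes was called from P7 to adult. The part of any of these cells in the fall of the mitotic genes was not tested.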

How the data were processed

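RNA of sorted microglia was amplified (Ovation PicoSL WTA System V2), labelled (Encore Biotin Module) and hybridised to 1 Affymetrix array per sample. The authors deposited log2 values made with RMA, per the submitters' processing notes; the RMA version is not given in the sources used here, and the log base was taken as 2 from the values. Array medians were 5.58 to 5.74. The number of arrays limits the precision.

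Of 41345 probe sets, 23521 had 1 gene symbol, 1814 several and 16010 none. The brightest single-symbol probe set was kept for each of 22180 genes. Limma 3.58.1 in R 4.3.3 (lmFit and eBayes) was fitted to all 18 arrays with 1 mean per group and 12 residual degrees of freedom. Calls used an adjusted p under 0.05. On simulated data, 97 to 100 of 100 genes changed by 2 log2 units and 77 to 88 of 100 changed by 1 were recovered, depending on the comparison. Between 6 and 16 unchanged genes were called as well. The simulated noise was independent between genes and arrays and had no floor. The recovery thus does not cover levels under background or an array that stands apart.

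Members and gene lists were chosen with earlier results of these data known. Named genes were up to 10 called members per direction with the largest difference (or the 5 largest where none was called), a role panel (Mki67, Top2a, Cdk1, Ccnb2, Bub1, Aurkb, Ndc80, Kif11, Anln and Smc4) and up to 3 called genes per pathway list. In the adult regional comparison the panel is given by its levels, and in the changes of the regional difference it was not tabulated. Other members and markers were named after their values were seen. Promoter letters came from RefSeq windows, taking the first where a gene had several. Alternatives covered the mean of a gene's probe sets, a filter on dim probe sets, further normalization, trend, array weights, the groups compared alone, a replicate block and leaving out arrays.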

Additional observations from a re-analysis of the deposited data

How the results depend on the processing

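All 49 genes were lower in the adult than at P7 under every alternative run, in both regions, though averaging probe sets left the members' values unchanged. Leaving out an array gave medians between -2.95 and -2.78 in cortex, and between -2.75 and -2.39 in corpus callosum. Adult levels near background limit the size of these falls, and 3 arrays per group limit the rest. The causes of the changes that follow were not tested.

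Leaving out both corpus callosum P7 replicate 1 and P3 replicate 3 gave medians of -2.75 for adult minus P7 in corpus callosum, 0.45 for P7 minus P3 there, -0.25 for the region at P7, 0.14 for the regional difference at P7 minus P3 and 0.29 for adult minus P7. Leaving out an array gave ranges of 0.15 to 0.49, -0.60 to -0.25, -0.17 to 0.17 and 0.29 to 0.62 for the last 4. In P7 minus P3, the genes called in cortex were 3 with the dim filter, trend or array weights (Cdc20 added), 1 with only the groups compared and 0 to 2 without an array. In corpus callosum they were 3 with the dim filter or array weights, 2 after quantile normalization or with trend, 0 with only the groups compared, 6 without both arrays and 0 to 3 without an array. Between regions at P3, 2 genes were called with the dim filter and 1 without both arrays; with the replicate block it was 1, Hmmr at -0.85 (adjusted p 0.0479), and the block changed no other call among the 49 genes. Replicate numbers were not taken to pair the samples, since the labels tie them to nothing and only 4 of 9 same-numbered pairs correlated over 0.1. All 9 were above 0 (0.016 to 0.30), 1 of 18 differently numbered pairs was over 0.1, and 7 of 9 cortical arrays correlated best with their own number. Pairing by number is thus possible but not established. At P7 1 was called with the dim filter and 2 with array weights. For the regional difference in the adult minus that at P7, 1 was called with the dim filter, trend or array weights, and 0 to 1 without an array. For adult minus P3, 1 was called with the dim filter, with trend or without both arrays.

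Signs turned for genes near 0. In cortex, P7 minus P3 was 0.024 for Cdk1 after median centring and 0.034 with array weights, 0.051 for Aurkb with array weights, and -0.094 for Ndc80 after quantile normalization. Without an array it ran from -0.074 to 0.083 for Cdk1, -0.17 to 0.16 for Aurkb and -0.17 to 0.16 for Ndc80. In corpus callosum, Aurkb was 0.0066 after quantile normalization, 0.011 with array weights and 0.18 without both arrays. Without an array, Aurkb ran from -0.18 to 0.20, Cdk1 from -0.083 to 0.19, Bub1 from -0.088 to 0.23 and Ccnb2 from -0.37 to 0.0015. Between regions at P3, Ccnb2 was -0.094 after quantile normalization, -0.026 with array weights and -0.18 to 0.16 without an array.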

Other observations

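The probe set shared by Ncapg and Lcorl, which cannot be given to either gene, had levels of 7.83 ± 0.15 at P3, 7.95 ± 0.09 at P7 and 4.70 ± 0.11 in the adult in cortex (SD, n = 3). In corpus callosum the levels were 7.29 ± 0.12, 7.45 ± 0.43 and 4.73 ± 0.19. Another pair of probe sets is annotated to both Top2a and Taf1d and followed another course than the Top2a probe set: the first read 8.21 ± 0.09 at P7 and 7.73 ± 0.43 in the adult in cortex, and 8.05 ± 0.28 and 8.38 ± 0.20 in corpus callosum.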
